A study of Mus musculus with 8 samples.

Results

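The 10 genes studied encode parts of the signal recognition particle (SRP), its receptor and the Sec61 translocon, and were followed in ovulated eggs of young and old mice. They are Srp9, Srp14, Srp19, Srp54a, Srp68, Srp72, Srpra, Srprb, Sec61a1 and Sec61b. They were found by symbol in the table of total mRNA, which lists 10530 genes, and in the table of ribosome-bound mRNA, which lists 8898. Of these 10 genes, 9 had a row in both tables, against 8537 genes of the whole series that are in both. The tables name Srpra by its older symbol Srpr, and its row was found by that symbol. Srp54a had no row among those analysed here. The group was chosen on the comparison of old with young in ribosome-bound mRNA, in which Srp72 and Srp14 stood out, so all values of these genes from that comparison are given as a description, with no test.

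Eggs arrested at metaphase II were collected from C57BL/6 RiboTag F/F;Zp3-Cre females. In these mice, of both ages, Cre made from the oocyte-specific Zp3 promoter switches the ribosomal protein Rpl22 to a form with an HA tag, so that HA antibodies pull down ribosomes of the oocyte with the mRNA on them. Young females were 1 month old and old females, which were retired breeders, were 12 to 15 months old. Ovulation was induced in all of them with PMSG (5 IU) followed after 48 h by hCG (10 IU). The eggs were taken 13 h after the hCG, in pools of 200. There were 2 pools per age, 4 in all, and each gave 2 libraries. The input library came from 10% of the lysate and measures total mRNA, and the HA library came from the precipitated ribosomes. No library from mice without the tag was analysed here, so the background of the precipitation is unknown.

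SRP is an RNA and protein complex that binds the signal sequence of a secreted or membrane protein as it leaves the ribosome and pauses elongation. The SRP receptor on the endoplasmic reticulum (ER) then takes over the ribosome, which docks on the Sec61 channel, and the growing chain passes into the ER. In mammals Srp9 and Srp14 form the heterodimer that pauses elongation, Srp19 helps to assemble the particle, Srp54 binds the signal sequence and GTP, and Srp68 and Srp72 form a second heterodimer. Srpra and Srprb are the receptor's subunits, and Sec61a1 and Sec61b encode the pore and a small subunit of the channel. The egg uses this route to make zona pellucida proteins, growth factors and the contents of its cortical granules.

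The mRNA 3′ ends of several of these genes are shown because translation in maturing oocytes depends in large part on elements there. The protein CPEB1 binds the cytoplasmic polyadenylation element (CPE), searched for here as TTTTAT or TTTTAAT on the transcript strand only, in that transcript of a gene whose annotated 3′-UTR is longest. Each line gives the 30 bases around the element nearest the 3′ end, with the element in capitals, from GENCODE M21 on GRCm38. Srp9 and Srp14 are among the genes whose HA levels were lower in old pools, as are Srpra, Sec61a1 and Sec61b. Srp72 is, with Srp68, among those whose HA levels were higher. The genes shown each hold an element, whereas Srp68, Srpra and Sec61b hold none.
Srp9 (chr1:182132314-182132343, plus strand): ataacttgaaatTTTTATtagttataagaa
Srp14 (chr2:118475857-118475886, minus strand): ttactgtaatagTTTTATtaaaagttgtgt
Srp72 (chr5:76999596-76999625, plus strand): ttaaggacttttTTTTATgttgaccaacag

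The element began 82 bases from the 3′ end in Srp9, 25 bases in Srp14 and 330 bases in Srp72. Of all HA-table genes with an annotated 3′-UTR, 70.5% of 8198 held such an element, as did 67.7% of 9598 in the input table. Srprb held 1, at 1097 bases from the end, and Sec61a1 held 2, the last at 1247 bases. Srp19 held 1, at 203 bases. No match was found in Srp68, Srpra or Sec61b. Genes with and without a match were thus found on both sides of the HA comparison below, as Srp72 held 1 and Srp68 none among those higher in old pools, and Srp9 held 1 and Srpra none among those lower. A match is a description of the letters and not a bound site.

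Libraries held 37817382 to 59688578 reads on genes for HA and 38276453 to 60052814 for input. Values are CPM, read counts scaled to library size, with TMM factors. A limit of 3 reads stood for 0.0388 to 0.111 CPM in HA and 0.0435 to 0.0788 CPM in input, and it covers counting error only. HA libraries of old eggs were the least alike: the median absolute gap between the 2 pools, in log2(CPM + 1), was 1.29 in old HA and 0.77 in young HA, against 0.77 and 0.59 in input. In old HA libraries 2.89% and 4.11% of the genes had no read, against 0.112% and 0.865% in young. All 12 oocyte markers were detected, at summed levels of 9787 to 10978 CPM in input and 12034 to 19627 CPM in HA. Of 14 cumulus and granulosa markers, 9 were listed in input, at a sum of 33.7 and 120 CPM in old and 84.7 and 194 CPM in young pools. In HA 4 were listed, at 85.1 and 84.5 CPM in old and 161 and 185 CPM in young pools, mostly Cyp19a1, while the defining markers Amh and Foxl2 had no row in either table. Of 8 blood and immune markers 0 were listed, and of 5 oviduct markers only Cdh1 and, in input, Epcam. Cdh1 was at 334 to 462 CPM in input and 478 to 705 CPM in HA, so its source cannot be told from these values. Epcam was at 57.6 and 0.963 CPM in old and 0.0581 and 3.29 CPM in young input pools. The part of these cells in the results was not tested. CPM are shares of a library, so fewer cells of a type and less RNA per cell cannot be told apart.

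In ribosome-bound mRNA the subunits of the SRP moved apart. Srp72 was about 11-fold more abundant in old than in young pools and Srp68, its partner, was also higher, whereas Srp9 and Srp14 were at 10 reads or fewer in old pools. Transcripts of the receptor subunit Srpra and of both channel subunits were lower in old pools as well. Srp19 and Srprb varied more between pools of one age than between ages. In total mRNA none of the 9 genes differed between ages after adjustment over all genes.

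**Figure D1:**
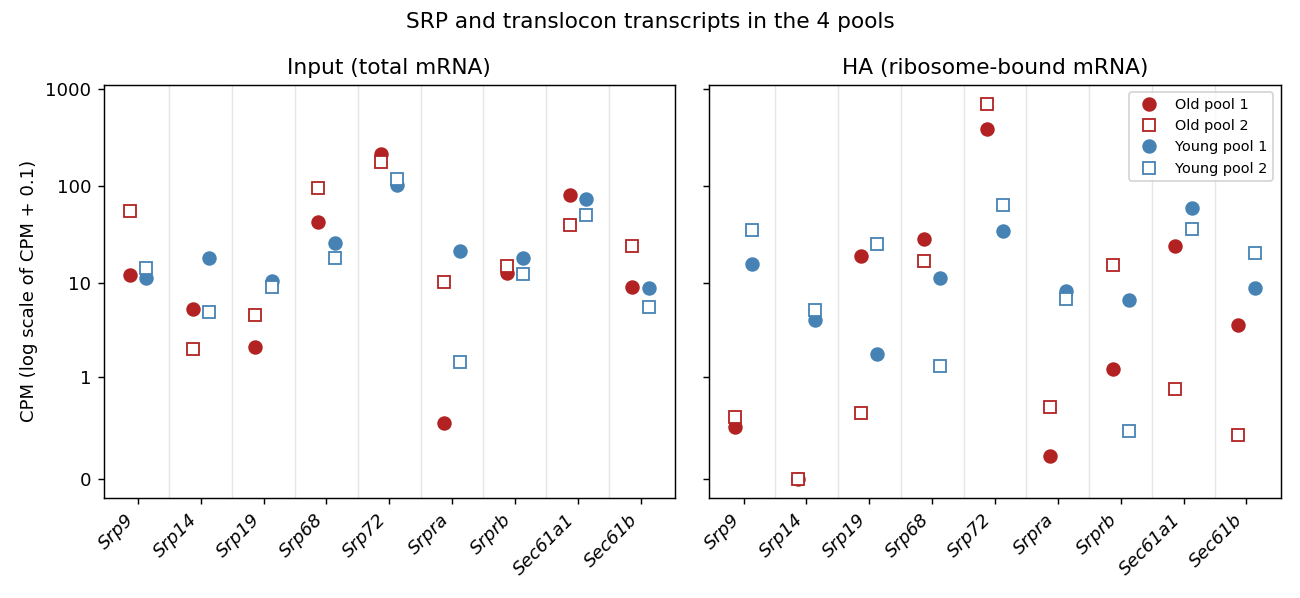
CPM of each gene in the 4 input libraries (left) and the 4 HA libraries (right), on a log scale of CPM + 0.1. Each point is 1 pool, old in red and young in blue, with pool 1 filled and pool 2 open. In HA, Srp72 is at 385 and 701 CPM in old pools against 34.8 and 64.1 CPM in young pools, while Srp14 is at 0 in both old pools.

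Srp72 (chr5:76974683-76999937, plus strand) encodes the largest SRP protein. Its HA level was 385 and 701 CPM in the old pools (16215 and 18958 reads) and 34.8 and 64.1 CPM in the young pools (2694 and 3636 reads). The groups were far apart, and the pools of one age differed 1.82-fold in old and 1.84-fold in young. The means were 543 ± 223 CPM in old and 49.5 ± 20.7 CPM in young (SD, n = 2), an 11-fold ratio and a difference of 3.43 in log2(CPM + 1). With every HA library rescaled to the same sum the difference was 2.80. In input Srp72 was at 213 and 178 CPM in old pools and at 103 and 117 CPM in young pools. Both old pools lay above both young pools there too, by a smaller margin of 0.82 in log2(CPM + 1) (SE 0.32, unadjusted p = 0.031, adjusted p = 0.778 in limma over all genes of the table).

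Srp68 (chr11:116245166-116274217, minus strand) encodes the protein that binds SRP RNA and holds Srp72. In HA it was at 28.9 and 17.0 CPM in old pools (1215 and 461 reads) and at 11.3 and 1.34 CPM in young pools (877 and 76 reads). Old pools lay above young pools, but the 2 young pools differed 8.46-fold. The difference was 2.11 in log2(CPM + 1), and it was 0.91 without young pool 2 and 3.31 without young pool 1. Its input level was 42.7 and 96.2 CPM in old and 26.3 and 18.1 CPM in young pools, a difference of 1.51 in log2(CPM + 1) (SE 0.60, unadjusted p = 0.035, adjusted p = 0.778 in limma), or 0.94 without old pool 2. Both proteins of this heterodimer were thus higher in old pools in each table as transcripts, without passing the adjusted threshold in input.

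Srp9 (chr1:182124737-182132407, plus strand) encodes a protein of the Alu-domain heterodimer. It had 10 and 9 reads in the old HA libraries and 1232 and 2033 reads in the young, or 0.238 and 0.333 CPM against 15.9 and 35.8 CPM. These groups were widely separated, with means of 0.285 ± 0.0672 CPM and 25.9 ± 14.1 CPM (SD, n = 2). The difference was −4.28 in log2(CPM + 1), the most negative of the 9 genes on this scale, which limits that of Srp14. In input the same pools held 12.1 and 55.9 CPM (old) and 11.3 and 14.6 CPM (young), so total Srp9 mRNA overlapped between ages and was highest in the old pool 2 (0.98, SE 0.90, adjusted p = 0.906 in limma). The input difference rested on that pool and was −0.0755 without it. A processed pseudogene, Gm17968, lies within the gene, and a 253-base stretch with a match of at least 95% lies in another pseudogene, so a part of its reads could be shared.

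Srp14 (chr2:118475850-118479711, minus strand) encodes its partner in that heterodimer. It had no read in either old HA library and 320 and 303 reads in the young ones, at 4.14 and 5.34 CPM. Set against the 3-read limit of each old library, its mean of 4.74 ± 0.852 CPM in young pools (SD, n = 2) makes it at least 52.0-fold lower in old HA. The bound covers counting error only and not the gap between old HA pools, which reached 52.1-fold in Srp19. On the log2(CPM + 1) scale the difference of Srp14 was −2.51, which the pseudocount limits. Srp14 was not missing from the same eggs, since input held 292 and 102 reads in old pools (5.37 and 2.05 CPM) and 1260 and 192 in young pools (18.3 and 5.05 CPM). Those input levels overlapped by a small margin and differed by −1.29 in log2(CPM + 1) (SE 1.09, adjusted p = 0.899 in limma). The input difference was −0.46 without young pool 1 and −2.13 without young pool 2.

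Srp19, an assembly protein, was spread over a wide range in HA. Its level was 19.2 and 0.370 CPM in old pools and 1.80 and 25.4 CPM in young pools, so that the pools of one age differed 52.1-fold in old and 14.1-fold in young. No direction with age can be read from it. In input it was at 2.17 and 4.73 CPM in old pools and 10.7 and 9.07 CPM in young, lower in both old pools (−1.35 in log2(CPM + 1), SE 1.00, adjusted p = 0.885 in limma).

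The signal-sequence-binding subunit was seen only through a relative of Srp54a. A row named Srp54b carries the identifier that GENCODE M21 calls Srp54c, and the Srp54a transcript has copies in both relatives, the longest match being 3644 bases, at 99.6% identity, so reads cannot be assigned with certainty within this family. That row was at 6.56 and 14.7 CPM in old HA and 11.4 and 5.15 CPM in young HA. In input it was at 11.6 and 8.41 CPM in old pools and 14.8 and 9.17 CPM in young pools. Ages overlapped in both tables (0.32 in HA and −0.22 in input in log2(CPM + 1), adjusted p = 0.971 and 0.983 in limma).

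Srpra (chr9:35200175-35247973, plus strand) encodes the receptor subunit with the GTPase that meets Srp54. In HA it had 3 and 12 reads in old pools and 641 and 392 in young pools, or 0.0713 and 0.444 CPM against 8.28 and 6.91 CPM. Both old pools lay far below both young pools, at a difference of −2.78 in log2(CPM + 1). Input gave no such separation, with 0.276 and 10.3 CPM in old pools and 21.6 and 1.50 CPM in young pools (−0.99, SE 1.46, adjusted p = 0.957 in limma). The sign of the input value turned to 0.58 without old pool 1 and to 0.60 without young pool 1. The annotated gene overlaps Tirap, Foxred1 and Fam118b, of which Tirap is in the tables, and reads were counted without strand over whole genes, so those in shared stretches cannot be told apart. A pseudogene, Gm6733, also carries a copy of its transcript.

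Srprb (chr9:103188032-103202137, minus strand) encodes the membrane-bound receptor subunit. Its HA level was 1.24 and 15.6 CPM in old pools and 6.68 and 0.212 CPM in young pools. The 2 ages overlapped, with pools 12.7-fold apart in old and 31.6-fold apart in young. In input, by contrast, it stayed between 12.5 and 18.1 CPM in all 4 pools (−0.10 in log2(CPM + 1), SE 0.81, adjusted p = 0.991 in limma). The receptor's pair of subunits therefore did not share a pattern in HA, where Srpra was separated by age and Srprb was not. Srprb overlaps Gm20425, with which it shares sequence.

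Sec61a1 (chr6:88503579-88518905, minus strand) encodes the pore of the channel. In HA it was at 24.0 and 0.739 CPM in old pools (1012 and 20 reads) and 59.3 and 36.7 CPM in young pools (4587 and 2080 reads). Old pools were lower, yet they differed 32.5-fold from each other. The difference in log2(CPM + 1) was −2.85, and it was −0.93 without old pool 2 and −4.78 without old pool 1. Total mRNA was at 81.8 and 39.7 CPM in old pools and 74.5 and 50.2 CPM in young pools, which overlapped (−0.10, SE 0.51, adjusted p = 0.986 in limma). An antisense gene, Gm44170, overlaps Sec61a1.

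Sec61b (chr4:47474658-47483242, plus strand) encodes a small tail-anchored subunit of the channel. Its HA level was 3.68 and 0.185 CPM in old pools and 8.85 and 20.4 CPM in young pools, lower in both old pools with a 19.9-fold gap between them. In log2(CPM + 1) the difference was −2.62, or −1.63 without old pool 2. Input went the other way, at 9.21 and 24.2 CPM in old pools against 8.91 and 5.73 CPM in young pools, with old pools higher by 0.97 (SE 0.96, adjusted p = 0.915 in limma). That value was 0.32 without old pool 2 and 1.63 without old pool 1. Copies of its transcript lie in 3 other genes, 2 of them pseudogenes, so its reads could be split. Sec61g, the third subunit of the channel, overlapped between ages in HA (8.62 and 11.7 CPM in old, 6.99 and 9.54 CPM in young) and in input (7.07 and 4.53 CPM in old, 5.30 and 2.16 CPM in young).

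Counted over the 9 genes, HA levels of old and young pools did not overlap in 7, of which 2 were higher in old (Srp68, Srp72) and 5 lower (Srp9, Srp14, Srpra, Sec61a1, Sec61b). Of all genes in the HA table, 17.2% were higher without overlap and 24.7% were lower. In limma's HA comparison of all genes 0% had an adjusted p under 0.05, while 4.28% had an unadjusted p under 0.05 with higher and 10.5% with lower levels in old pools. Because the HA comparison chose the group, nothing is read from its count or from its median below. Every gene listed in HA reached 1 CPM before TMM in 2 libraries. Srp9, Srp14 and Srpra were under it in both old pools, so they were listed through their young pools. The median difference of the 9 genes in HA was −2.51 in log2(CPM + 1), or −2.62 with Srp14 set at its bound, against −0.14 over all genes. It was −0.93 without old pool 2. Rescaling every HA library to the same sum moved the median of all genes to −0.68 and that of the 9 genes to −2.78.

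In input, old and young pools did not overlap in 4 of the 9 genes. Srp68, Srp72 and Sec61b were higher in old pools and Srp19 was lower, against 16.4% of all genes higher and 18.9% lower. An unadjusted p under 0.05 in limma was reached by 2 genes, Srp68 and Srp72, both higher, against 2.71% of all genes higher and 3.48% lower. It was reached by 0 of the 9 with every input library rescaled to the same sum and by 1 after quantile normalization. After adjustment 0 of 9 passed, as did 0.00950% of all genes, a single gene. In edgeR's likelihood ratio test, which called 0.475% of all genes, and in DESeq2, which called 1.15%, 0 of the 9 passed as well. The median input difference was −0.10 in log2(CPM + 1) against −0.03 over all genes. Its sign rested on single pools, as it was 0.58 without old pool 1, 0.60 without young pool 1 and −0.35 without young pool 2. With 2 pools per age an exact two-sided permutation test of one gene cannot go below p = 0.333.

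HA differences in this series moved with the level of a gene. When genes of the HA table were ranked by mean CPM over all 4 libraries and split into 10 bins of like size, the median difference was −0.97 in the lowest bin, −1.01 in the next and 0.61 in the highest. A gene's own difference helps to place it: Srp72, at 3.43, lay in the highest bin through its old pools, and its young mean of 49.5 CPM is within the seventh bin (34.2 to 60.2 CPM), whose median was −0.02. Srp68 and Srp9 shared the fifth bin, whose median was −0.46, and lay on opposite sides of it at 2.11 and −4.28. Srp14 and Srpra, at −2.51 and −2.78, were in the second bin, whose median was −1.01. In that bin 44.4% of all genes were lower in old pools without overlap, and in the fifth bin 24.4% were. Sec61b and Srp19 were in the fourth bin (median −0.81) and Sec61a1 in the sixth (median −0.27). The part of expression level in these differences was not tested.

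**Figure D2:**
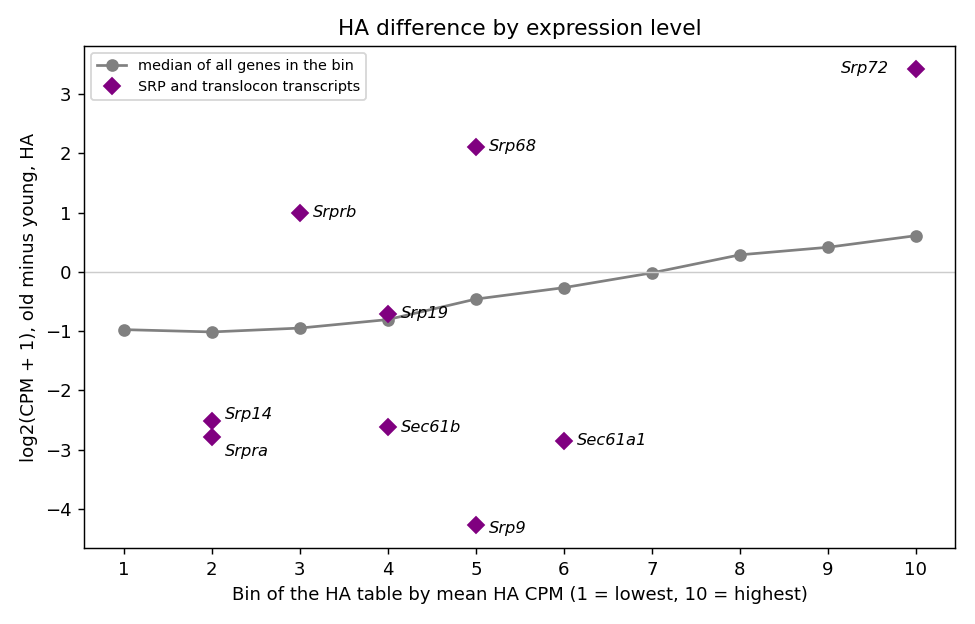
Difference between old and young pools in HA, in log2(CPM + 1), against the bin of the HA table by mean HA CPM, with 1 the lowest and 10 the highest. Grey points joined by a line are medians of all genes in a bin, which were −0.97 in the lowest bin and 0.61 in the highest, and purple diamonds are the 9 genes, from Srp9 at −4.28 to Srp72 at 3.43.

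Levels were also compared between genes per length, as CPM per kilobase of the annotated transcript with the longest 3′-UTR. This is approximate because the counts include introns. In input of young pools Srp72 came first at a mean of 30.3 CPM per kilobase, above all others, and Srpra came last at 3.86, with pools at 0.501 and 7.23 that span those of Srprb. Between them Sec61a1, Srp14, Sec61b, Srp19, Srp68 and Srp9 followed in this order from 19.7 to 9.45 CPM per kilobase, and each overlapped its neighbour. Srprb was below Srp9 without overlap, at 4.99. In HA of young pools the first 5 places, from Sec61b at 25.9 to Srp72 at 13.6 CPM per kilobase, overlapped from neighbour to neighbour. Srp72 stood alone in HA of old pools, at 150 CPM per kilobase against 11.2 for Srp19 in the next place. Levels per length within the one particle therefore covered from 0 for Srp14 to 150 for Srp72 in old HA libraries.

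The HA level of a pool divided by its input level gives the ribosome-bound share relative to total mRNA. The 2 tables were scaled separately, so the ratio carries an unknown constant and is compared only between pools, as a description. For Srp72 it was 1.81 and 3.94 in old pools and 0.339 and 0.546 in young pools, higher in both old pools. For Srp9 it was 0.0196 and 0.00595 in old pools against 1.41 and 2.46 in young pools. Sec61a1 gave 0.294 and 0.0186 in old pools and 0.795 and 0.730 in young pools. In Sec61b the ratio was 0.400 and 0.00763 in old pools against 0.993 and 3.56 in young ones. These 4 genes did not overlap between ages, and the last 3 were lower in old pools.

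Srp68, which was higher in old pools in both tables, had overlapping ratios of 0.676 and 0.177 in old pools and 0.431 and 0.0740 in young pools. Its higher HA level thus went with a higher input level. The ratio of Srp19 ranged from 0.0781 to 8.88 in old pools alone, and that of Srprb from 0.0170 to 0.369 in young pools. For Srp14 it was 0 in both old pools and 0.226 and 1.06 in the young. Srpra gave 0.259 and 0.0433 in old pools and 0.383 and 4.61 in young pools. On the log2 scale with 1 CPM added to each level, Srpra and Srp14 overlapped between ages, which leaves 1 gene higher, 3 lower and 5 with overlap. Of all genes in both tables, 17.2% were higher in old pools without overlap and 20.4% were lower. The median difference of the 9 genes on that scale was −1.22, against −0.10 over all genes. This median contains the HA values that chose the group, so nothing is read from it. Without old pool 2 it was −0.44, without young pool 2 −0.32 and without young pool 1 −2.21, and with a pseudocount of 5 CPM it was −0.12.

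**Figure D3:**
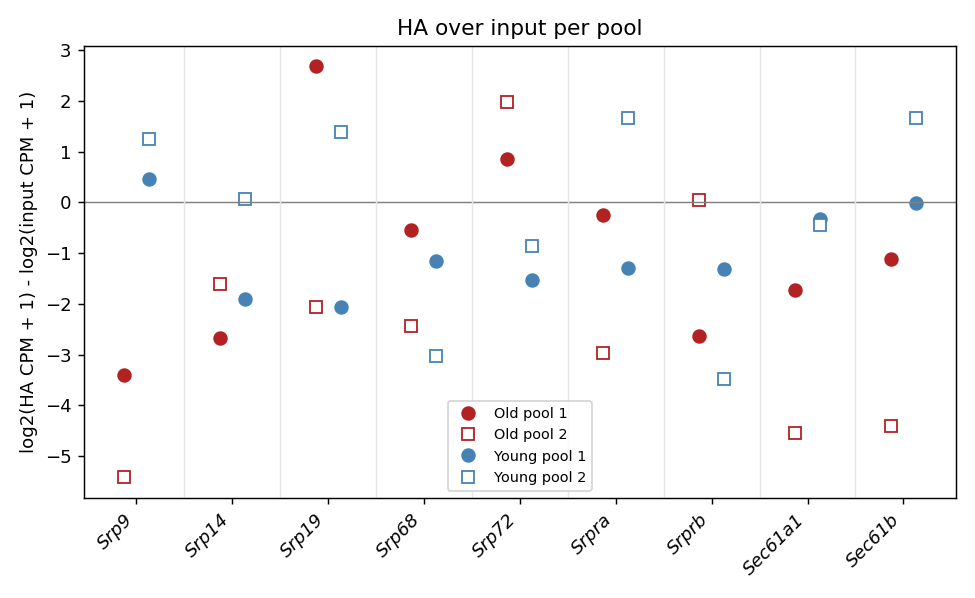
HA over input per pool, as log2(HA CPM + 1) minus log2(input CPM + 1), for the 9 genes. Each point is 1 pool, old in red and young in blue, with pool 1 filled and pool 2 open. Srp72 is the gene with both old pools above both young pools, and Srp9, Sec61a1 and Sec61b are those with both old pools below.

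Other genes that act at the same step were taken from a list of 57, covering further SRP and translocon genes, signal peptidase, oligosaccharyltransferase (which adds sugar chains to proteins in the channel), the tail-anchor and EMC insertion routes and the nascent-chain complex. Of these, 36 were in the HA table and 39 in the input table. In HA 8 had an unadjusted p under 0.05 in limma, all lower in old pools, and 0 of 36 passed after adjustment (smallest adjusted p = 0.297). Of these 8, Ssr2, Sec11a, Spcs1, Ddost, Ostc, Get3 and Emc2 were under 1 CPM in both old HA libraries. Every gene listed in HA reached 1 CPM before TMM in 2 libraries, so these were listed through their young pools. Their direction was therefore fixed by the listing, and nothing is read from it. The groups did not overlap in 12 genes, 3 higher and 9 lower in old pools, where the shares over all genes were 17.2% and 24.7%, so that the lower count was near the background. The unadjusted p under 0.05 with a lower level was reached by 10.5% of all genes. The list's median was −0.16 in log2(CPM + 1) against −0.14 over all genes, and −0.78 against −0.34 without old pool 1. Under scaling by size factors of the DESeq2 type it was 0.03, against 0.05 over all genes. In input 1 gene had an unadjusted p under 0.05, and 0 of 39 passed after adjustment, in limma, in both edgeR tests and in DESeq2 (smallest adjusted p = 0.364, in DESeq2).

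Signal peptidase, which cuts the signal sequence off inside the ER, had 4 listed genes in the HA table, 2 lower in old pools and 2 with overlap. Sec11a, a catalytic subunit, had 4 and 23 reads in old HA and 2065 and 2656 in young HA, or 0.0950 and 0.850 CPM against 26.7 and 46.8 CPM (−4.68 in log2(CPM + 1), SE 1.44, adjusted p = 0.297 in limma). In input it was at 14.5 and 15.8 CPM in old pools and 15.9 and 11.2 CPM in young pools, which overlapped. Spcs1, an accessory subunit of the enzyme, had no read in either old HA library and 567 and 61 in the young (−2.06, SE 0.78, adjusted p = 0.313 in limma). With only counting error covered, it was at least 46.1-fold lower, or at least 11.8-fold without young pool 1. Its input levels overlapped, at 2.87 and 6.44 CPM in old pools and 4.30 and 1.87 CPM in young pools. Both genes thus had low HA in old pools with input that overlapped, as Srp9 did. The remaining genes did not: Sec11c was at 0.0475 and 16.0 CPM in old HA and 7.38 and 2.52 CPM in young HA, and Spcs2 was at 9.65 and 164 CPM in old HA and 45.6 and 38.1 CPM in young HA.

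Ssr2 encodes a subunit of the TRAP complex beside the channel. It had 0 and 1 read in old HA and 365 and 181 in young HA, a ratio of old to young of 0.00355 (95% interval 8.98e-05 to 0.0199, exact, for counting error only). The limma difference was −2.27 (SE 0.63, adjusted p = 0.297). In input it was at 0.294 and 2.43 CPM in old pools and 5.59 and 2.92 CPM in young pools, so the total was lower in both old pools as well. Ssr1, of the same complex, was the gene with a low p in input, at 1.12 and 7.08 CPM in old pools and 25.7 and 21.1 CPM in young pools (−2.55, SE 1.04, unadjusted p = 0.0391, adjusted p = 0.778 in limma). Its HA level overlapped, from 0.296 to 56.3 CPM in old pools alone.

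Get3, listed by its older symbol Asna1, is the ATPase that carries tail-anchored proteins such as Sec61b to the ER. It had 22 and 2 reads in old HA and 1780 and 448 in young HA, or 0.523 and 0.0739 CPM against 23.0 and 7.90 CPM (−3.51, SE 1.20, adjusted p = 0.297 in limma). Input was higher in both old pools, at 64.4 and 48.9 CPM against 28.3 and 29.6 CPM (0.93, SE 0.51, adjusted p = 0.790 in limma). Emc2, a subunit of the ER membrane complex that also inserts tail anchors, had 11 and 0 reads in old HA and 678 and 423 in young HA (−3.02, SE 0.89, adjusted p = 0.297 in limma), with input that overlapped. HA was lower and input not lower in Get3, as in Sec61b.

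Oligosaccharyltransferase had 9 listed genes in HA, 5 with a difference above 0 and 4 below 0, at a median of 0.16. Old and young pools did not overlap in 1 that was higher and 2 that were lower in old pools. Ddost, a subunit, had 2 and 23 reads in old HA and 833 and 322 in young HA (−2.67, SE 1.01, adjusted p = 0.313 in limma). Ostc, of the same complex, was at the 3-read limit in old HA with 0 and 1 read, against 77 and 58 in young HA. Its ratio of old to young was 0.0144 (95% interval 0.000361 to 0.0814, exact). Both had input in old pools that overlapped with young pools or, for Ostc, was higher (7.70 and 9.17 CPM against 4.75 and 3.18 CPM). The remaining gene of the 8 was Emc3, at 16.8 and 15.1 CPM in old HA and 64.3 and 93.4 CPM in young HA.

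With other tools, adjusted p in HA fell under 0.05 for Ssr2 (0.0464), Sec11a (0.0477) and Spcs1 (0.0462) in edgeR's likelihood ratio test, which called 3.32% of all genes. In DESeq2, which called 5.82%, it did so for Sec11a (0.000848) and Get3 (0.0197). Each of these genes was under 1 CPM in both old HA libraries and was listed through its young pools, which fixed its direction. In edgeR's quasi-likelihood test 0 of the 36 passed. These calls therefore depended on the test.

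Sec62 and Sec63 form the accessory complex of the channel that serves chains brought in after translation. Sec62 was at 128 and 50.5 CPM in old HA and 36.6 and 59.0 CPM in young HA, and at 87.6 to 103 CPM in all 4 input pools. Sec63 was at 13.3 and 68.7 CPM in old HA and 21.3 and 77.9 CPM in young HA, with 54.2 to 91.7 CPM in input. Ages overlapped for both genes in both tables (adjusted p = 0.782 and 0.947 in HA in limma).

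**Figure D4:**
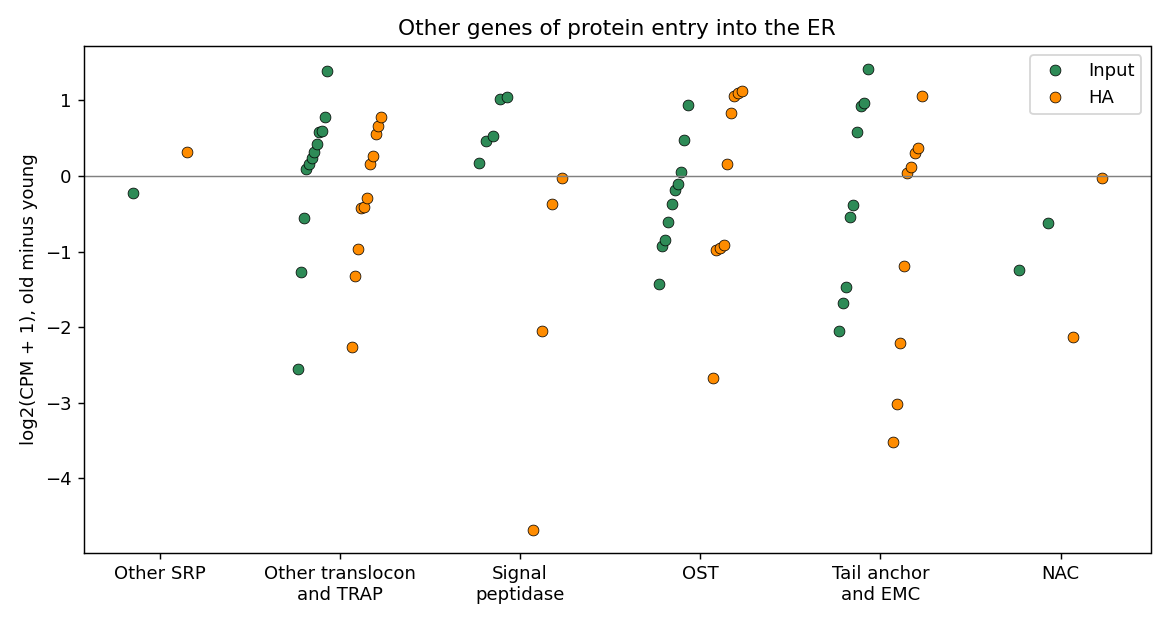
Difference between old and young pools in log2(CPM + 1) for the other genes of protein entry into the ER, in input (green, 39 genes) and HA (orange, 36 genes). Each point is 1 gene, grouped by complex: TRAP is the complex with Ssr2, OST is oligosaccharyltransferase, EMC is the ER membrane complex and NAC is the nascent-chain complex. The lowest point in HA is Sec11a at −4.68, and the lowest in input is Ssr1 at −2.55.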

How the data were processed

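RNA-Seq was performed on input and HA libraries of 4 pools of eggs, 2 per age. According to the study's methods and the submitters' processing notes, reads were trimmed with Trimmomatic 0.36, aligned to GRCm38 with HISAT2 and counted with HTSeq over whole genes (introns included) without strand, on GENCODE M11. The authors then applied TMM in edgeR, separately to HA and to input, and deposited CPM. These deposited values are treated as a signal, since TMM changes the sums of the columns: they are read counts divided by a TMM-scaled library size. From them 100% of values gave whole reads (within 0.01 read), which served for the count tests. The methods state a minimum of 10 CPM in 2 libraries. In the files 100% of the genes reach 1 CPM before TMM in 2 libraries.

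Old and young were compared per table with limma 3.58.1 (R 4.3.3, trend option, two-sided) on log2(CPM + 1), and Benjamini-Hochberg adjustment was applied over all genes of a table with a threshold of 0.05. A difference on this scale understates the change of low genes. Alternatives used edgeR 4.0.16 and DESeq2 1.42.0. The study describes the pools of an age as biologically independent, from one experiment. Genes, lists and the naming rule (of the listed pathway genes, up to 6 with the smallest p under 0.05 per table and direction, Sec61g, Sec62, Sec63 and Srp54b, and genes at the limit of 3 reads; Emc3, Sec11c and Spcs2 were named after their values were seen) were chosen with earlier results of these data known. The fits were tested on simulated data. Coordinates, 3′-UTRs and transcripts are from GENCODE M21, in which over 99% of the identifiers were found.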

Additional observations from a re-analysis of the deposited data

How the results depend on the processing

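Over all genes, limma called 1 gene in input and 0 in HA (930 lower and 381 higher at an unadjusted p under 0.05). With edgeR's likelihood ratio test the counts were 50 and 295, with its quasi-likelihood test 0 and 0, and with DESeq2 114 and 508. Leaving out 1 pool gave 0 to 2 in input and 0 to 634 in HA, with 634 without young pool 2, 393 without old pool 1 and 3 without old pool 2. These fits set 1 library against 2, so their spread comes from the other age alone and the lone library is assumed to vary like it. A replicate block on the pool number gave 9 in HA. Same-numbered pools deviated together only weakly (r = 0.08 in HA and 0.03 in input), so the numbers were not taken as pairs. Of the other pathway genes, the 8 with an unadjusted p under 0.05 in HA became 5 with a pseudocount of 5 CPM. They became 1 with at least 10 CPM in 2 libraries and 2 after quantile normalization, all lower in old pools. Without old pool 1, or without old pool 2, the genes reaching it included some that were higher in old pools. In input the 1 such gene became 0 in the quasi-likelihood test and 0 to 5 without 1 pool, with 5 without old pool 2. The causes were not tested, except that the 10 CPM minimum removes low genes. Of the input differences, Srp9 became −0.0755 without old pool 2, Srpra 0.58 without old pool 1 and 0.60 without young pool 1, Srprb 0.01 and 0.16 without the same pools, and Sec61a1 0.41 without old pool 2 and 0.18 without young pool 1, none of them past the threshold. Without 1 pool in turn they ran from −0.0755 to 2.04 for Srp9, from −2.58 to 0.60 for Srpra, from −0.35 to 0.16 for Srprb and from −0.61 to 0.41 for Sec61a1. The HA median of the 9 genes, −2.51, was −0.96 with a pseudocount of 5 CPM, −1.43 after quantile normalization and −0.71 with the 10 CPM minimum, which keeps 5 of them. The old HA values of Srp9, Srp14 and Srpra each rest on 12 reads or fewer per library.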
